A study of Oncorhynchus mykiss with 8 samples.

Results

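Expression of 3 enzymes of glucose and glutamate metabolism, pck2, gapdh and gdh2, was examined in liver and muscle of small and large rainbow trout. Every probe carrying one of these symbols in the platform annotation was taken, in upper or lower case. This gave 5 of 43603 probes, namely 2 of pck2, 1 of gapdh and 2 of gdh2, and these are 3 of the 93 symbols other than locus placeholders. All 5 probes had a value on all 8 arrays.

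The fish were of the Lyndon strain, and both the small and the large group were neomale offspring reared at the same station and fed to appetite. A neomale is a genetic female that has been masculinised and is used as a sire. Each array compared a pool of small fish with a pool of large fish from liver or from muscle, each pool holding mRNA of 5 fish, and a second array repeated the comparison with the dyes exchanged. Titles and labels were read as 2 pool pairs per tissue, called replicate 1 and replicate 2. This number is an assumption, because the labels do not say how many separate pools were made, nor the age of the fish or the size that parted the groups. If pools share fish, the p-values below measure only the spread between these preparations.

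These enzymes link amino acid and glucose metabolism. Glutamate dehydrogenase, named gdh2 here, removes the amino group of glutamate and so passes carbon from protein to the citric acid cycle. Phosphoenolpyruvate carboxykinase, of which pck2 is the mitochondrial form, draws carbon from that cycle toward glucose. Glyceraldehyde-3-phosphate dehydrogenase, gapdh, works in both directions of the glycolytic pathway and is often used as a reference transcript. Trout take much of their energy from protein, and their liver makes glucose from amino acids.

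The deposited value is a log2 ratio of both channels, and its direction is unknown. Both possible readings are therefore given, as values on the log2 scale. Arrays whose large fish carried Alexa Fluor 555 are called 555 arrays, and those whose large fish carried Alexa Fluor 647 are called 647 arrays. In the turned reading the 647 array of each pool pair had its sign changed before it was averaged with the 555 array. In the other, unturned reading the deposited values were averaged with no sign changed. The turned mean compares fish sizes only if the deposited numerator is the same dye on every array. The unturned mean does so only if the numerator is the same fish size on every array. Under the wrong reading an average sets the fish sizes against each other and keeps what differs between the dyes. Which size of fish a positive turned value favours is unknown. A ratio holds no level, so the tissue labels could not be checked against markers and the enzymes could not be ranked by abundance. In whole tissue, fewer cells of a type and less RNA per cell cannot be told apart.

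The log2 ratios of all probes had a standard deviation of 0.55 to 0.92 per array in liver but 0.32 to 0.33 in muscle, so a given log2 ratio stands out more in muscle. No member passed in limma under either reading. In liver 0 of 5 probes passed an adjusted p of 0.05, against 0% of 36053 probes tested, and in muscle 0 of 5 passed, against 0% of 41652. At an unadjusted p under 0.05 in limma, 3 of 5 turned member probes were counted in liver, where the background was 20.4%, and 1 of 5 in muscle, where it was 4.53%. With no sign changed the counts were 1 of 5 in liver against 9.97% and 1 of 5 in muscle against 1.63%. Both turned background shares depended on the spread that the main fit pools over liver and muscle. When each tissue was fitted alone, 2646 liver probes fell below the same limit instead of 7346. For muscle the number was 5046 instead of 1885. The median turned estimate of the 5 probes was -0.33 in liver and -0.10 in muscle. The median over all probes tested was 0.04 and 0.01. The member medians are single values, that of gapdh in liver and that of pck2 at A_05_P425397 in muscle, and show no shared shift. Member estimates ranged from -0.67 to 0.33 in liver and from -0.47 to 0.64 in muscle.

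**Figure D1:**
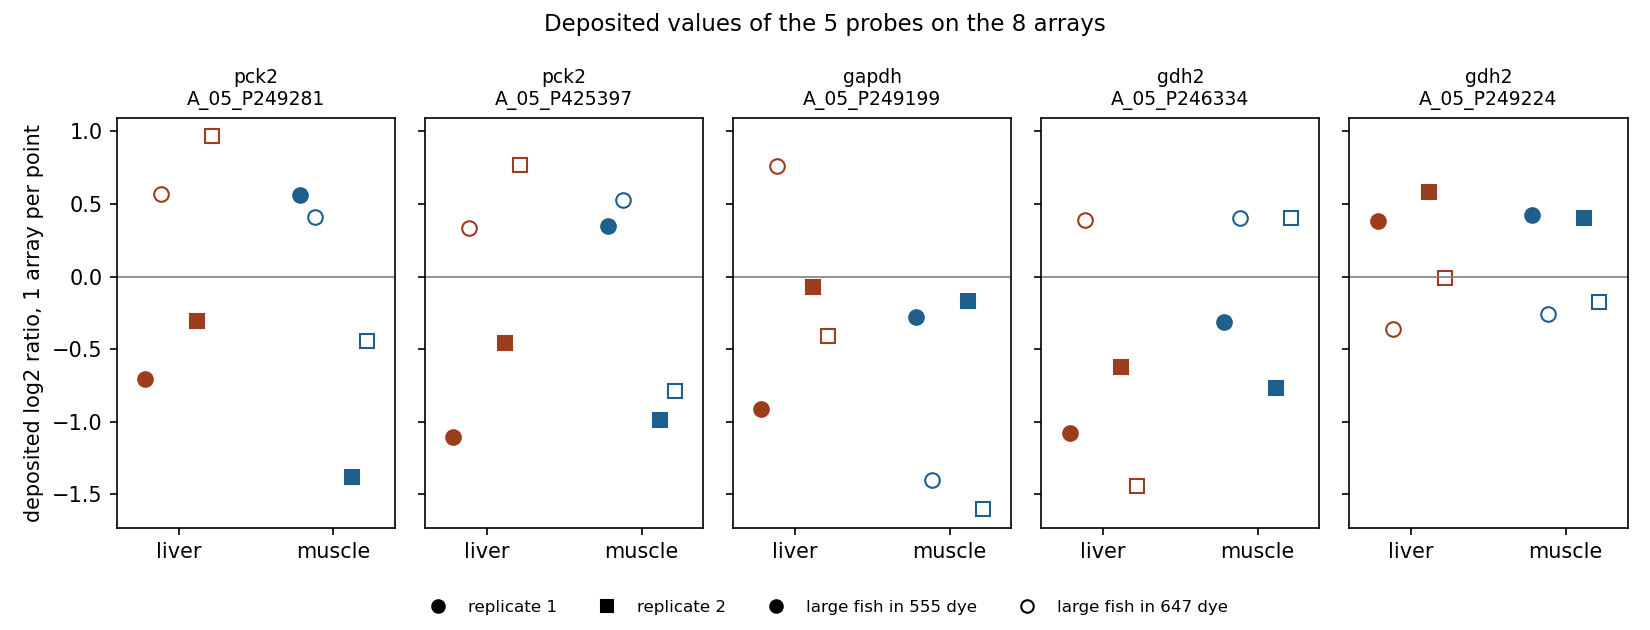
Deposited log2 ratios (vertical axis) of the 5 probes on the 8 arrays, in 1 panel per probe, with liver and muscle side by side, circles for replicate 1, squares for replicate 2, filled points for 555 arrays and open points for 647 arrays. Both pck2 panels show the same arrangement, with filled points below and open points above 0 in liver and circles above and squares below 0 in muscle, and the gapdh panel has its lowest points at -1.40 and -1.60 on the muscle 647 arrays.

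The gluconeogenic gene pck2 behaved alike at both of its probes. On the liver 555 arrays, A_05_P249281 had deposited values of -0.71 in replicate 1 and -0.31 in replicate 2. With the dyes exchanged it had 0.57 and 0.97. At A_05_P425397 the corresponding values were -1.11 and -0.46, then 0.34 and 0.77. The sign thus followed the dye orientation in liver at both probes and in both pool pairs, and the values of both orientations did not overlap. How many liver probes lack such overlap was not counted.

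Turned, pck2 had a liver mean of -0.64 at A_05_P249281, with pool pairs that differed by an SD of 0.0005 (n = 2 pool pairs). A spread this small between 2 pool pairs is no measure of precision, since the arrays behind them ranged from -0.97 to -0.31 once turned. The 95% interval from limma, which borrows the spread of all probes and of muscle, was -1.07 to -0.20, with an adjusted p of 0.187. At A_05_P425397 the turned mean was -0.67 ± 0.08 (SD, n = 2 pool pairs), about 1.59-fold, with a limma interval of -0.92 to -0.42 and an adjusted p of 0.166. With liver fitted alone, limma gave both probes an adjusted p of 0.5995. The intervals were then -1.08 to -0.20 at A_05_P249281 and -1.12 to -0.22 at A_05_P425397. Both probes were negative on all 4 turned liver arrays, as were 8.51% of liver probes.

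The liver value of pck2 depended on the reading. With no sign changed the means were 0.13 ± 0.28 at A_05_P249281 and -0.11 ± 0.38 at A_05_P425397 (SD, n = 2 pool pairs), with limma intervals of -0.86 to 1.12 and -1.09 to 0.86. These intervals are wide enough to hold a ratio of the turned size in either direction. Their width is not that of liver alone, since the fit shares the spread of muscle, where the unturned SDs of pck2 were 0.99 and 0.94. With liver fitted alone and no sign changed, the adjusted p in limma were 0.877 and 0.902. When liver replicate 1 or replicate 2 was left out, A_05_P425397 passed with adjusted p of 0.0227 and 0.0131 in limma and turned values of -0.61 and -0.72, while A_05_P249281 had 0.0925 and 0.0852. In those fits the lone liver pool pair was assigned the narrower spread of muscle, and 6270 or 6765 liver probes passed in all. The same limit holds for the other values below with a liver replicate left out.

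In muscle the arrangement of pck2 was a different one. In replicate 1 A_05_P249281 had 0.56 on the 555 array and 0.41 on the 647 array. In replicate 2 it had -1.38 and -0.45. At A_05_P425397 the values were 0.35 and 0.53 in replicate 1 and -0.99 and -0.79 in replicate 2. Here the sign followed the pool pair and did not change with the dye, and the arrays of both pool pairs did not overlap at either probe. How many muscle probes lack such overlap was not counted. The same arrangement of signs was found for 6.32% of 41652 muscle probes.

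On the 555 array of replicate 2, only 0.664% of muscle probes had a value of larger size than pck2 at A_05_P249281. Averaged with no sign changed, the pool pairs of A_05_P249281 had 0.48 and -0.91 and those of A_05_P425397 had 0.44 and -0.89. Their means, -0.21 ± 0.99 and -0.23 ± 0.94 (SD, n = 2 pool pairs), each average pool pairs of opposite sign. Turned, the means were -0.20 ± 0.38 and -0.10 ± 0.01, with limma intervals of -0.63 to 0.24 and -0.35 to 0.16 and adjusted p of 1 for both.

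Most probes of plasma proteins that liver makes had the arrangement of pck2 in muscle. Of 5 such probes, 4 were positive on both arrays of replicate 1 and negative on both arrays of replicate 2, against the 6.32% of muscle probes above. By the unturned means alone, 5 of 5 were positive in replicate 1 and negative in replicate 2, as were 25.9% of muscle probes. Unturned, replicate 1 had means of 0.18 to 0.79 and replicate 2 had means of -1.44 to -0.64. Turned, the means did not part the pool pairs by sign, with -0.38 to -0.13 in replicate 1 and -0.40 to -0.03 in replicate 2. These probes belong to alb1 (albumin), antithrombin and trf (transferrin, with 3 probes). Of 3 probes of the red blood cell marker hba, an alpha globin, 1 had the arrangement array by array and 2 by their means, while 0 of 5 probes of the muscle genes mlc-2, a myosin light chain, and prvb, a parvalbumin, had it by either count, nor did the adipocyte marker pparg. The part of other tissue in the muscle values of pck2 was not tested.

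**Figure D2:**
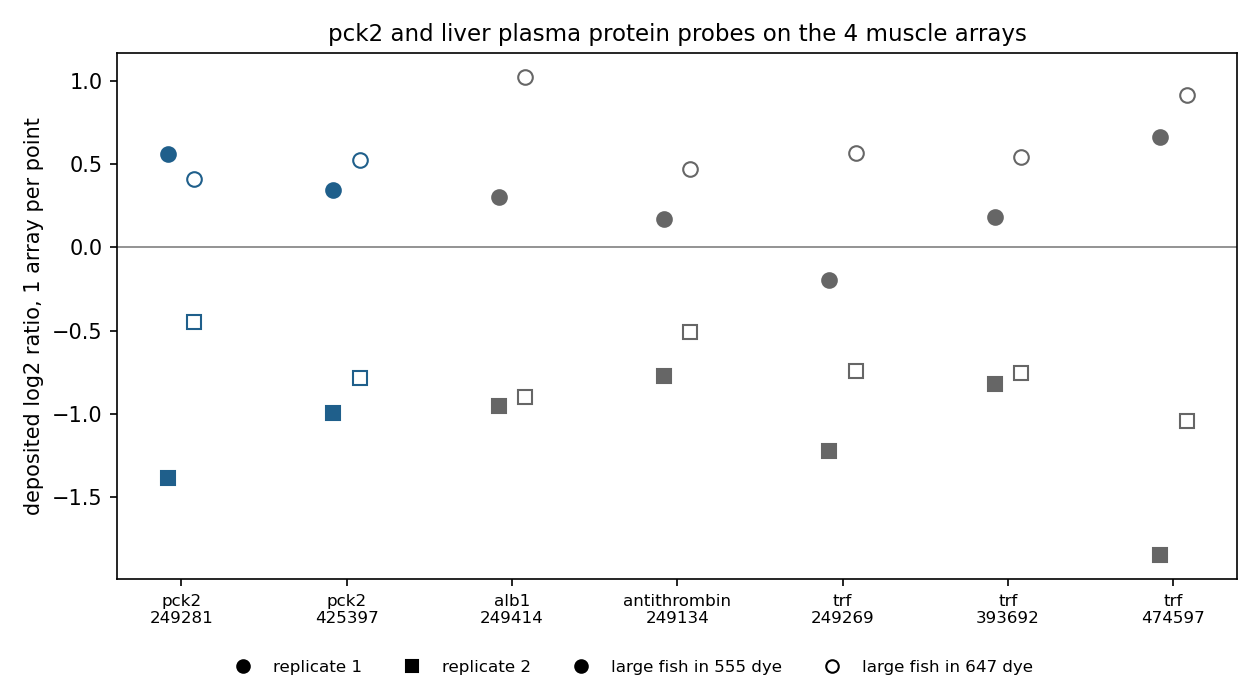
Deposited log2 ratios (vertical axis) of the 2 pck2 probes (blue) and the 5 plasma protein probes (grey) on the 4 muscle arrays, with circles for replicate 1, squares for replicate 2, filled points for 555 arrays and open points for 647 arrays. All squares lie below 0 and, apart from the first trf probe at -0.20, all circles lie above 0.

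Among plasma protein probes, 2 of the 3 trf probes were also among the most like pck2 over all 8 arrays. The third trf probe, A_05_P249269, and those of alb1 and antithrombin were not among the 3 most like either pck2 probe. On every liver array A_05_P249269 had the opposite sign to both pck2 probes, with 0.48 and 0.55 on the 555 arrays. The named probe of another gene most like A_05_P249281 was a trf probe, A_05_P474597, with an uncentred correlation of 0.90 over 8 arrays, followed by fadsd5, a fatty acid desaturase, with 0.82 and il-1rl with 0.77. For A_05_P425397 they were fadsd5 with 0.88 and 2 trf probes with 0.86 and 0.85. This measure is the same under both readings, and it was taken over the 98 named probes with all values. The points are not independent, since arrays of a pool pair hold the same RNA. The trf probe A_05_P474597 was positive on all 4 liver arrays, with 0.33 and 0.25 on the 555 arrays, where both pck2 probes were negative. The desaturase probe also did not share the liver arrangement of pck2 on every array, since its value on the 647 array of replicate 2 was -0.58, against 0.97 and 0.77 for pck2.

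The glycolytic gene gapdh, with the single probe A_05_P249199, had negative deposited values on all 4 muscle arrays, as did 4.99% of muscle probes. On the 555 arrays the values were -0.28 in replicate 1 and -0.17 in replicate 2. On the 647 arrays they were -1.40 and -1.60. These latter values were among the extremes of their arrays, where 0.621% and 0.486% of probes had a larger size. The mean was -0.22 ± 0.08 on the 555 arrays and -1.50 ± 0.14 on the 647 arrays (SD, n = 2 arrays each). How many muscle probes differ this much between dye orientations was not counted.

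In muscle the sign of gapdh depended on the reading. Unturned, its mean was -0.86 ± 0.03 (SD, n = 2 pool pairs), with a limma interval of -1.14 to -0.59, an unadjusted p of 0.000804 and an adjusted p of 1. Turned, it was 0.64 ± 0.11, about 1.56-fold, with an interval of -0.08 to 1.36 and an adjusted p of 1 in limma. With muscle fitted alone, the turned adjusted p in limma was 0.137. The turned sign was positive in both pool pairs but in 2 of 4 arrays.

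The liver values of gapdh did not settle on a sign. Replicate 1 had -0.91 on the 555 array and 0.76 on the 647 array, much like pck2 there. Replicate 2 had -0.08 and -0.41. The turned mean of -0.33 ± 0.71 (SD, n = 2 pool pairs) joins -0.84 in replicate 1 and 0.17 in replicate 2, and limma gave an interval of -1.05 to 0.38 and an adjusted p of 0.478. Without replicate 2 the turned value was -0.84 with an adjusted p of 0.0105 in limma, and without replicate 1 it was 0.17 with 0.409. Unturned, the mean was -0.16 ± 0.12, with an interval of -0.44 to 0.12.

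The probes most like gapdh over the 8 arrays were those of fxyd9b, with an uncentred correlation of 0.85, fxyd12a, with 0.83, and sr-bi, with 0.82. The fxyd genes encode small regulators of the sodium pump and sr-bi a lipoprotein receptor. On the muscle 647 arrays they were negative too, but smaller, from -0.58 to -0.08. Those arrays weigh most in this measure, since gapdh divided by the array SD was -4.40 and -5.03 there. Its next largest size was -1.455, on the liver 555 array of replicate 1. In liver sr-bi had 0.22 and 0.32 on the 555 arrays, where gapdh was negative, and fxyd12a lay between -0.08 and 0.02. The fxyd9b probe was negative on every liver array, and gapdh on all but the 647 array of replicate 1. The RefSeq annotation of trout (assembly USDA_OmykA_1.1) lists 2 genes with gapdh as symbol or synonym, and the accession of the probe is not among its transcripts. Which of them the probe measures is therefore unknown. The same annotation lists 0 genes with pck2 or gdh2 as symbol or synonym, and 0 of the 3 accessions of member probes. The names of pck2 and gdh2 thus rest on the platform annotation alone.

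The glutamate dehydrogenase gene gdh2 gave opposite values at its 2 probes. On the liver 555 arrays, A_05_P246334 had -1.08 in replicate 1 and -0.62 in replicate 2, whereas A_05_P249224 had 0.38 and 0.58. With the dyes exchanged the former had 0.39 and -1.44 and the latter -0.36 and -0.01. In 3 of 4 liver arrays the signs were opposite.

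In muscle the probes of gdh2 were opposite on 4 of 4 arrays. A_05_P246334 had -0.31 and -0.77 on the 555 arrays and 0.40 in both pool pairs on the 647 arrays. At A_05_P249224 these values were 0.42 and 0.40, then -0.26 and -0.18. Each probe of gdh2 thus changed sign with the dyes in muscle, in opposite directions.

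Turned, A_05_P249224 had nearly the same mean in both tissues, 0.33 ± 0.05 in liver and 0.31 ± 0.04 in muscle (SD, n = 2 pool pairs), about 1.26-fold and 1.24-fold. It was positive on all 4 turned arrays of each tissue, as were 17.7% of liver and 8.83% of muscle probes. The limma intervals were 0.09 to 0.58 and 0.07 to 0.56, and the adjusted p were 0.198 and 1. With each tissue fitted alone, the adjusted p in limma were 0.5995 in liver and 0.246 in muscle. The intervals were then -0.11 to 0.78 in liver, which holds 0, and 0.11 to 0.52 in muscle. Blank control spots shared this sign in liver, where 3 of 3 such spots in replicate 1 and 5 of 5 in replicate 2 with both values were positive once turned, from 0.35 to 1.86, the opposite sign to pck2. In muscle 11 of 14 and 13 of 14 were positive, from -0.03 to 0.63. Their part in the value of gdh2 was not tested. Unturned, the means were 0.15 ± 0.20 in liver and 0.10 ± 0.02 in muscle.

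The other gdh2 probe, A_05_P246334, had a turned muscle mean of -0.47 ± 0.16 (SD, n = 2 pool pairs) and was negative on all 4 turned arrays, as were 8.35% of muscle probes. Its limma interval was -1.28 to 0.34 and its adjusted p 1, or 0.176 with muscle fitted alone. In liver the turned pool pairs were -0.73 and 0.41, with a mean of -0.16 ± 0.81 and an adjusted p of 0.759 in limma. The 647 array of replicate 2, with -1.44, was the only 647 array on which this probe was negative. Without that replicate A_05_P246334 had -0.73 with an adjusted p of 0.0197 in limma, and without replicate 1 it had 0.41 with 0.103. With no sign changed the liver mean was -0.69 ± 0.49, with an unadjusted p of 0.0234 and an adjusted p of 0.457 in limma, and the muscle mean was -0.07 ± 0.16.

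**Figure D3:**
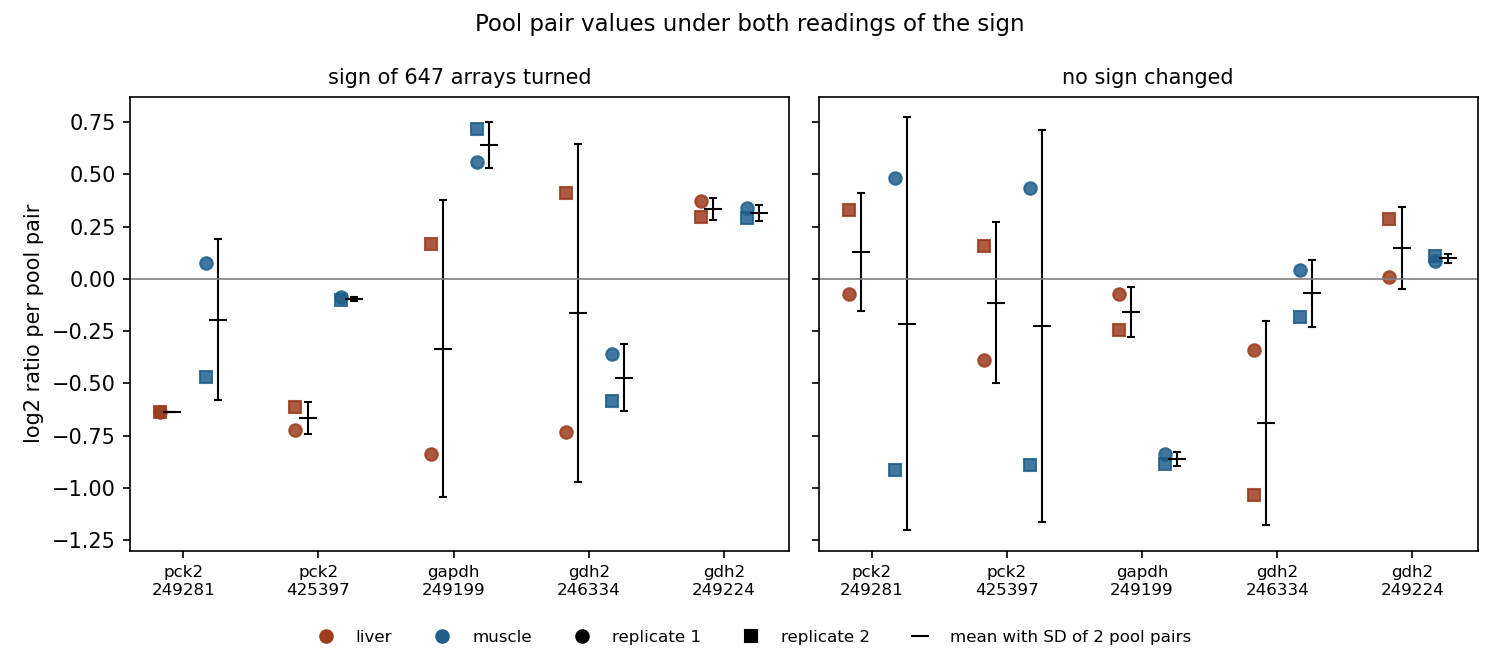
Log2 ratio per pool pair (vertical axis) of the 5 probes, with the sign of the 647 arrays turned on the left and no sign changed on the right, liver in red-brown, muscle in blue, circles and squares for replicates 1 and 2, and the mean with the SD of 2 pool pairs in black. The liver points of both pck2 probes lie between -0.72 and -0.61 when turned and on both sides of 0 otherwise, the muscle points of gapdh lie at opposite signs in the 2 panels, and those of pck2 in muscle lie far apart with no sign changed.

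Agreement between probes of the same gene can be read without choosing a sign, because the size of a difference within an array is the same under both readings. The pck2 probes had the same sign on 8 of 8 arrays, and their difference in log2 ratio ranged in size from 0.12 to 0.40, with a median of 0.22. The gdh2 probes had the same sign on 1 of 8 arrays, and their difference ranged from 0.58 to 1.46, with a median of 0.96. Both gdh2 probes carry the same accession in the platform annotation, as do both pck2 probes.

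The other 53 pairs of probes that share a symbol and have all values came from 27 genes, locus placeholders included. Their median difference had a median of 0.39. It was smaller than that of pck2 for 9.43% of these pairs and smaller than that of gdh2 for 98.1%. On single arrays the ranks were less extreme. There the share of other pairs with a smaller difference than pck2 was 12.5% to 42.4% in liver and 21.3% to 63.9% in muscle. For gdh2 it was 78.7% to 95.1% over both tissues. The same sign was found on a median of 5 of 8 arrays, on all 8 for 1 pair and on at most 1 array for 1 pair. These pairs share arrays, and some share a gene, so this is a description without a test. Over the 8 arrays the uncentred correlation was 0.93 between the pck2 probes and -0.85 between the gdh2 probes.

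**Figure D4:**
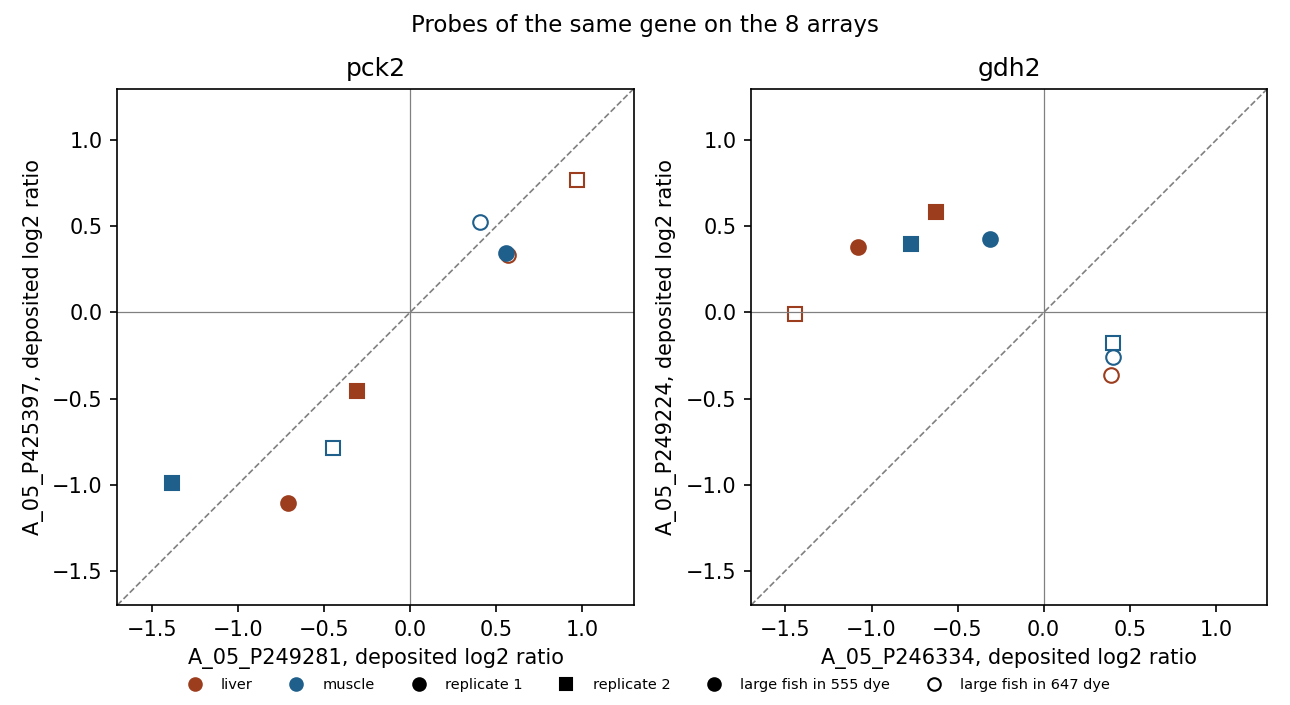
Deposited log2 ratio of one probe (horizontal axis) against the other probe of the same gene (vertical axis) on the 8 arrays, for pck2 on the left and gdh2 on the right, with liver in red-brown, muscle in blue, circles and squares for replicates 1 and 2, filled points for 555 arrays, open points for 647 arrays, and equal values on the dashed line. The pck2 points follow the dashed line from -1.38 to 0.97, and 7 of 8 gdh2 points lie in the quadrants of opposite sign.

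The genes most like each gdh2 probe differed, which the correlation of -0.85 between these probes already implies, so this adds nothing to their disagreement. Those most like A_05_P246334 were sod1, a superoxide dismutase, with an uncentred correlation of 0.89, rtn4 with 0.88 and tapbp, of antigen presentation, with 0.83. Those most like A_05_P249224 were tap2b, a peptide transporter, with 0.86, a probe of hba with 0.85 and a probe of mlc-2 with 0.83. On the 647 arrays of replicate 2 tap2b was positive, with 0.53 in liver and 0.13 in muscle, where A_05_P249224 was negative. Another hba probe, A_05_P249379, was negative on every 555 array, where A_05_P249224 was positive. On the muscle 555 arrays the mlc-2 probe A_05_P249999 was negative too, with -0.32 and -0.04, but A_05_P488482 and A_05_P488692 were positive.

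Of the wider list of 79 genes of glucose and glutamate metabolism, 1 further probe was named by the annotation, that of gdh3.1. RefSeq lists gdh3.1 as a synonym of glud1, a glutamate dehydrogenase. This probe, A_05_P393732, had deposited liver values of -0.78 and -0.19 on the 555 arrays and 0.28 and -0.04 on the 647 arrays. In muscle they were between -0.12 and 0.04. The turned means of gdh3.1 were -0.30 ± 0.32 in liver and -0.06 ± 0.01 in muscle (SD, n = 2 pool pairs), with adjusted p of 0.303 and 1 in limma. It was negative on 3 of 4 turned liver arrays, as were A_05_P246334 of gdh2 and gapdh, while A_05_P249224 of gdh2 was positive on all 4. The share of liver probes negative on 3 of 4 was not counted, so this does not set gdh3.1 beside either gdh2 probe. Of this wider list 0 of 1 probe passed in either tissue.

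Whether the ratio of a probe differed between liver and muscle was tested last. With limma, 0 of 5 member probes passed, against 0% of 34757 probes tested, and 1 of 5 had an unadjusted p under 0.05, against 8.97%, or 1 of 5 against 4.94% with no sign changed. The turned one was A_05_P425397 of pck2, with a turned difference of -0.57 (liver minus muscle), an interval of -0.93 to -0.22 and an adjusted p of 0.546. The other pck2 probe had -0.44, with an interval of -1.06 to 0.17. For gapdh the turned difference was -0.97, with an interval of -1.99 to 0.04 and an adjusted p of 0.559 in limma, and with no sign changed it was 0.70, with an interval of 0.31 to 1.09 and an adjusted p of 0.842. For gdh2 the turned differences were 0.02 at A_05_P249224, with an interval of -0.33 to 0.37, and 0.31 at A_05_P246334, with -0.84 to 1.46. Without liver replicate 1 the latter was 0.88 with an adjusted p of 0.0302 in limma, and without liver replicate 2 it was -0.26. Without liver replicate 2 the turned difference of gapdh was -1.48 with an adjusted p of 0.0075 in limma, and without liver replicate 1 it was -0.47 with 0.124.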

How the data were processed

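Transcript ratios were measured on 8 arrays with 2 colours. The authors' deposited table gives 1 log2 ratio of both channels per probe and array. That unit was read from the values, since scanner software, background correction, normalization, numerator and dye handling are not given in the sources used here. No intensities or dim-spot filter were used. The number of pool pairs limits precision, and signal over background is unknown. The 60 control spots were left out. Symbols came from an old platform annotation. Members and lists were chosen with earlier results of these data known.

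Each pool pair was reduced to 1 value by turning the sign of its 647 array and averaging, and also by averaging with no sign changed. All probes with a value on every array of a tissue entered 1 fit per reading (limma 3.58.1, R 4.3.3) with tissue as the only term, moderated statistics, two-sided tests and Benjamini-Hochberg adjustment at 0.05. Steps were tested on simulated data, in which both tissues had the spread of muscle and changes were larger than any member mean. That test therefore cannot show how the shared fit handles the wider spread of liver or smaller changes. Likeness was the uncentred correlation over the 8 arrays, after dividing by each array's SD, and the 3 named probes of other genes with the highest value were listed. All 5 member probes are described.

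Alternatives were the sign reading, centring, scaling, missing values, a tissue fitted alone, a random block, a replicate block and leaving out each pool pair. Replicate numbers are not stated to link liver with muscle. Over 34757 probes, the difference of replicate 1 minus 2 correlated between tissues with r = 0.067 when turned and 0.041 otherwise. Within a tissue, turned pool pairs 1 and 2 correlated over probes with r = 0.21 in liver and 0.32 in muscle. With no sign changed, r was 0.08 in liver and -0.095 in muscle. Which reading is right was not tested.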

Additional observations from a re-analysis of the deposited data

How the results depend on the processing

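Of 160 values of member probes under alternatives, 138 kept their direction and their side of the threshold, 6 passed it and 16 had the other sign. All 6 that passed, and 6 of the 16, came from leaving out a pool pair. Many of the 138 repeat the main estimate by construction. For a tissue these are the fits with missing values allowed, that tissue alone, a pool pair of the other tissue left out, or the random block. For liver minus muscle they are the fits with missing values allowed or with either block. No member passed in the main fit, so the share that stayed is no measure of stability. With no sign changed, the liver value of pck2 at A_05_P249281 was 0.13 and the muscle value of gapdh -0.86. The same values came from a tissue fitted alone under that reading, a fit added after seeing the data. The liver minus muscle values were then 0.34 and 0.11 for the pck2 probes, 0.70 for gapdh and -0.62 for A_05_P246334 of gdh2. At A_05_P249224 that difference was -0.053 with arrays centred on their medians and -0.21 with arrays scaled to one spread. With a pool pair left out, turned values ranged from -0.73 to 0.41 in liver and from -0.26 to 0.88 for liver minus muscle at A_05_P246334, and from -0.019 to 0.057 for the latter at A_05_P249224. Liver gapdh ranged from -0.84 to 0.17 and muscle pck2 at A_05_P249281 from -0.47 to 0.076.

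The number of probes past the threshold in limma was 0 in all comparisons of the main fit and of the fit with no sign changed. It ranged from 0 to 6765 in liver, from 0 to 3 in muscle and from 0 to 3699 for liver minus muscle when a pool pair was left out, and the counts above 0 came from leaving out a liver pool pair, after which only muscle gives the spread. With all arrays and the pool pair as a random block, which counts arrays of the same RNA separately, it was 2478 in liver, and the estimated correlation was -0.149. In muscle it was 1 after scaling and 3 with muscle fitted alone. With the replicate block, 0 probes passed for liver minus muscle and 2139 had an unadjusted p under 0.05, against 3118 without it, and no call of a member changed. The median difference of probes, 0.22 for pck2 and 0.96 for gdh2 over single arrays, was 0.12 and 0.79 over turned pool pair means and 0.11 and 0.32 over pool pair means with no sign changed. The cause was not tested.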
